A study of Mus musculus with 2 samples.

Results

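The 8 genes described here make or control the MHC class II molecules that display peptides to CD4+ T cells. They were taken by name from a list of class II presentation genes, and all 8 are among the 32285 genes of the files. They are Cd74, H2-Aa, H2-Ab1, H2-Eb1, H2-DMa, H2-DMb1, H2-DMb2 and Ciita. They were read in lymph node immune cells of C57BL/6 mice by droplet single-cell RNA sequencing from the 3′ end of transcripts. RPA1 conditional knockout mice (CKO) were set against wild type mice (WT). RPA1 is the largest part of replication protein A, which binds exposed DNA strands while the genome is copied or mended. The promoter that drives the deletion, the cells it acts in, and the number and age of the animals are not given in the sources used here. Each genotype is 1 library, so no difference between CKO and WT has a replicate check and no test was made. Every interval below is a 95% interval for counting error only.

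MHC class II is a pair of chains, alpha and beta, on B cells, dendritic cells and activated macrophages. In these mice H2-Aa and H2-Ab1 encode the alpha and beta chain of I-A, and H2-Eb1 encodes the beta chain of I-E, whose alpha gene is defective in C57BL/6 mice. Cd74 encodes the invariant chain, which fills the groove and guides the molecule to endosomes. There the DM heterodimer, with its alpha chain from H2-DMa and its beta chain from H2-DMb1 or H2-DMb2, exchanges the last piece of the invariant chain for a peptide. Ciita encodes the co-activator that switches the whole set on. It does not bind DNA itself but docks on RFX, CREB and NF-Y proteins at paired promoter elements, known as the X box and the Y box.

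In GRCm38 with GENCODE M21, 6 of the 8 genes lie together in the MHC on chromosome 17. H2-DMa is annotated at chr17:34119541-34139101, H2-DMb2 at chr17:34143307-34151555 and H2-DMb1 at chr17:34153072-34160230, all on the plus strand. H2-Ab1 follows at chr17:34257689-34269419 on the plus strand, H2-Aa at chr17:34282744-34287823 on the minus strand and H2-Eb1 at chr17:34305867-34316674 on the plus strand. The 5′ end of H2-DMa overlaps Brd2, chr17:34112023-34122634, which runs on the minus strand. All 8 are annotated as protein coding.

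Promoter letters are shown for 4 of the chromosome 17 genes, because they include H2-DMb1 and H2-DMb2, whose balance differed between cell types in both libraries. The RefSeq promoter table for GRCm38.p6 matched 5 of the 8 members by symbol, namely H2-Aa, H2-Eb1, H2-DMa, H2-DMb1 and H2-DMb2. Each entry runs from 250 bases before the gene start to 50 after it. Both strands were searched for ATTGG, the core of the Y box, and for GNNAC directly followed by NGATG, letters of the X box. GNNAC alone was also searched, and overlaps the longer match. The windows below are 100 bases each, 5′ to 3′ on the gene's own strand, set so that ATTGG starts at base 56. Capitals mark ATTGG and, where it starts 20 to 40 bases earlier on the same strand, GNNAC. The windows are chr17:34287827-34287926 (minus strand) for H2-Aa, chr17:34305753-34305852 for H2-Eb1, chr17:34153075-34153174 for H2-DMb1 and chr17:34145104-34145203 for H2-DMb2 (plus strand for these 3). GENCODE places the starts of H2-DMb1 and H2-DMb2 earlier than RefSeq, at chr17:34153072 and chr17:34143307. By that annotation the windows of H2-DMb1 and H2-DMb2 lie within the genes.
H2-Aa: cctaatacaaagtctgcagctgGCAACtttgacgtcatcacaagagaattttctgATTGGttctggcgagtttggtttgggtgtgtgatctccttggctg
H2-Eb1: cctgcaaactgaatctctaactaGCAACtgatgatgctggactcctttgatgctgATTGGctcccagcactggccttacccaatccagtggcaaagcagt
H2-DMb1: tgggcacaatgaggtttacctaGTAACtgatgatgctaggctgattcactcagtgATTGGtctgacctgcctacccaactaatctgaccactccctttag
H2-DMb2: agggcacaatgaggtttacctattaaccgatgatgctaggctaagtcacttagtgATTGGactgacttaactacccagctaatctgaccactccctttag
The ATTGG started 48 bases before the RefSeq gene start of H2-Aa, 59 before that of H2-Eb1, 61 before that of H2-DMb1 and 90 before that of H2-DMb2. GNNAC stood 33 bases ahead of it in H2-Aa, 32 in H2-Eb1 and 33 in H2-DMb1. GNNAC directly followed by NGATG was present in H2-Eb1 and H2-DMb1, and absent from the H2-Aa, H2-DMa and H2-DMb2 entries. At the matching 10 bases, counted from the first base of the motif, H2-DMb1 and H2-DMb2 differed by G1T and T6C. Over the whole window these 2 sequences shared 89 of 100 bases, while every other pair of the 4 shared 25 to 28. Neither RefSeq start of H2-DMa had the pair, and 1 of them had an ATTGG. Among all 32851 promoters of the table, 37.4% held ATTGG, 2.97% held GNNAC directly followed by NGATG, 11.4% held GNNAC with ATTGG 20 to 40 bases on, and 0.0700% held both NGATG and that ATTGG after GNNAC. These are matches of letters and say nothing of binding.

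Cells were assigned to gates by raw counts of unique molecular identifiers (UMIs), each standing for 1 captured RNA molecule. B cells needed at least 2 UMIs of Cd79a and none of Cd3e. Cells called dendritic needed at least 5 UMIs of Cst3, and cells called monocyte or macrophage at least 5 of Lyz2, both without Cd79a and Cd3e. T cells needed at least 2 UMIs of Cd3d, Cd3e and Cd3g together and no Cd79a, and natural killer cells, added here as a second class II negative type, at least 1 of Ncr1 and none of the B and T genes. The CKO and WT libraries kept 11804 and 11169 cells, with medians of 4416 and 5824 UMIs, and shared 56 cell barcodes, 0.407% of the CKO and 0.439% of the WT barcodes. Rpa1, the targeted gene, stood at 26.2 CPM (UMIs of the gene per 1000000 UMIs of the gate) in CKO T-gated cells and at 40.6 CPM in WT T-gated cells, a ratio of 0.647 (0.589 to 0.709). In B-gated cells it was 35.8 CPM in CKO and 40.8 CPM in WT, a ratio of 0.877 (0.791 to 0.974). The counts in the Cst3 gate, 12 UMIs in CKO and 6 in WT, and in the Lyz2 gate, 3 and 2, were too few to show a difference.

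The B gate held 7344 CKO and 2755 WT cells, with median depths of 3876 and 4041 UMIs. The Cst3 gate held 69 CKO and 56 WT cells, with medians of 6856 and 9614 UMIs, and the Lyz2 gate 21 CKO and 19 WT cells, with medians of 7461 and 10090 UMIs. The T gate held 3526 CKO and 7721 WT cells, and the natural killer gate 175 CKO and 63 WT cells. The B-lineage markers Ms4a1 and Cd79b were present at 1187 and 1738 CPM in CKO B-gated cells and at 1078 and 1691 CPM in WT B-gated cells, so the B gate met its label. Most cells of the Lyz2 gate, 15 of 21 in CKO and 17 of 19 in WT, also passed the Cst3 gate.

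The label of the Lyz2 gate did not hold alike in both libraries. Summed over 10 monocyte or macrophage markers, CKO cells of this gate had 21333 CPM and WT cells 13706 CPM. Most of each sum was Lyz2, the gene that defines the gate, at 17878 CPM in CKO and 11692 CPM in WT. Over 10 conventional dendritic cell markers, of which 7 were detected in CKO and 9 in WT, the sums were 227 CPM in CKO and 1068 CPM in WT. Xcr1, the chemokine receptor of cross-presenting dendritic cells, had 0 UMIs in the CKO cells and 54 UMIs in 4 of the WT cells. Flt3, a growth factor receptor of dendritic cells, was found in 1 of 21 CKO cells and 8 of 19 WT cells. Ly6c2, a marker of inflammatory monocytes, stood at 1741 CPM in CKO and 440 CPM in WT. Markers of natural killer cells summed to 434 CPM in CKO and 5.06 CPM in WT, and each one detected in CKO, such as Gzma with 47 UMIs, had its UMIs in 1 of the 21 cells. The part of these markers in the class II values of the gate was not tested, and it is called the Lyz2 gate here. The neutrophil genes S100a8, S100a9 and Retnlg had no UMI in it in either library. Likewise the Cst3 gate mixed several kinds of cell, described below.

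**Figure D1:**
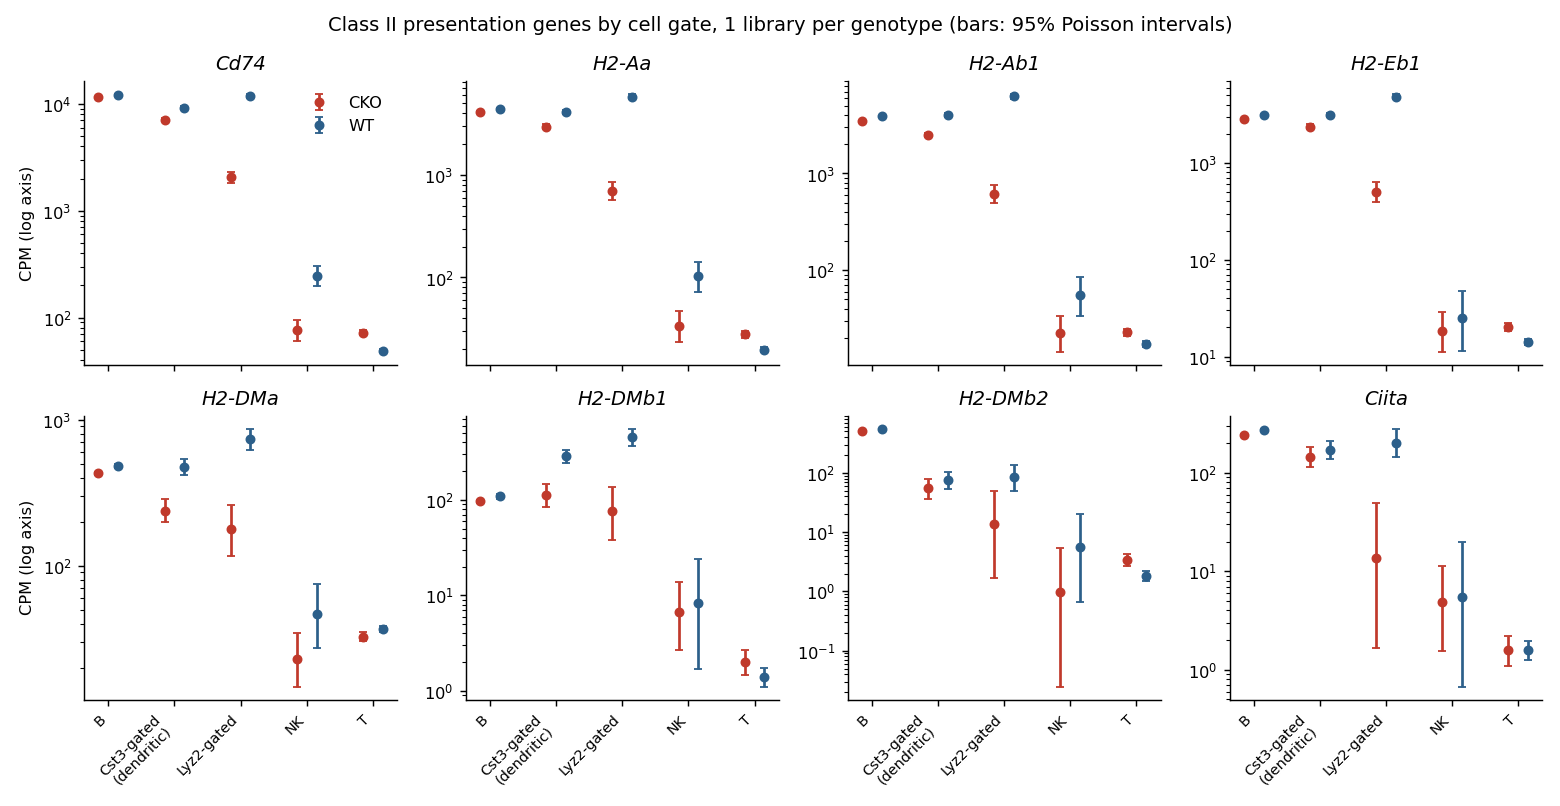
Level of each of the 8 genes in CPM (log axis) in 5 gates, CKO (red, left) and WT (blue, right), 1 library each; bars are 95% Poisson intervals for counting error. The CKO and WT points lie close together in B cells, furthest apart in the Lyz2 gate, and far lower in natural killer and T cells.

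In B cells the class II genes were abundant in both genotypes, and all 8 stood slightly lower in CKO. Together they made up 2.33% of all UMIs in CKO B cells and 2.51% in WT B cells, a ratio of 0.929 (0.925 to 0.933). The ratios of single genes ran between 0.883 for Ciita and 0.9497 for Cd74, and all 8 intervals lay below 1. The share of all genes whose interval left out 1 was not taken, so this count has no background. None of the 8 reached a 1.2-fold difference, which 6.98% of the 2936 genes with at least 50 CPM did in either direction. Of the same genes, 38% were lower in CKO by any amount. The median of the 8 members was -0.16 on the log2 scale, against a median of 0.04 over all 2936 genes, whose central 90% spanned -0.18 to 0.25. The members thus lay within the spread of all genes, in its lower part.

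Outside the MHC, Cd74 lies at chr18:60803848-60812652 and Ciita at chr16:10480059-10528418 of GRCm38, both on the plus strand. Among the chains and the invariant chain, Cd74 stood at 11564 CPM in CKO and 12176 CPM in WT B cells. H2-Aa stood at 4142 CPM in CKO and 4421 CPM in WT, a ratio of 0.937 (0.928 to 0.946). H2-Ab1, its partner, stood at 3500 CPM in CKO and 3925 CPM in WT, a ratio of 0.892 (0.882 to 0.901). This beta chain was thus further below WT than the alpha chain it pairs with, by more than the counting error of either. H2-Eb1 stood at 2821 CPM in CKO and 3146 CPM in WT, a ratio of 0.897 (0.886 to 0.907). Because Cd74 differed least, the number of Cd74 UMIs per UMI of the 3 chains was 1.11 in CKO and 1.06 in WT B cells.

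The genes of the peptide editor gave fewer UMIs than the chains, on counts from transcript 3′ ends that are not divided by gene length. H2-DMa stood at 428 CPM in CKO and 482 CPM in WT B cells, a ratio of 0.889 (0.863 to 0.916). H2-DMb2 stood at 507 CPM in CKO and 548 CPM in WT, a ratio of 0.926 (0.901 to 0.952). H2-DMb1 stood at 96.6 CPM in CKO and 109 CPM in WT, a ratio of 0.888 (0.834 to 0.946). Ciita stood at 240 CPM in CKO and 272 CPM in WT, a ratio of 0.883 (0.848 to 0.919). In both genotypes H2-DMb2 was the main DM beta transcript of B cells.

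Nearly every B cell carried class II RNA. After every cell was thinned to 2000 UMIs, which left out 123 CKO and 31 WT B cells, Cd74 was found in 99.9% of CKO and 99.9% of WT cells; before thinning the shares were also 99.9% in both. At the same depth Ciita was found in 36.9% of CKO (35.8% to 38.1%) and 41.1% of WT cells (39.3% to 43.0%), and unthinned in 59.0% of CKO and 64.1% of WT cells. H2-DMa was found in 57.2% of CKO and 62.5% of WT B cells at equal depth, against 80.2% and 85.2% unthinned. Per cell, the sum of Cd74, H2-Aa, H2-Ab1 and H2-Eb1 had a median of 23299 CPM in CKO B cells (quartiles 19225 and 27162 CPM) and 25438 CPM in WT B cells (quartiles 21433 and 29838 CPM). The 2 distributions overlapped widely and were shifted as a whole, and only 12 of 7344 CKO cells and 2 of 2755 WT cells fell below 1000 CPM.

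The lower level was also present within the large subsets of B cells. Of the gate, 78.5% of CKO and 80.8% of WT cells had both Ighd and Fcer2a, the IgD heavy chain and CD23 of follicular B cells, with fewer than 5 Jchain UMIs. In them all 8 members were lower in CKO, with ratios of 0.847 to 0.923, where 38.8% of all genes were lower. In B cells with Ighd but no Fcer2a all 8 were lower as well, at 0.805 to 0.918, against 48% of all genes. The small rest was mixed: of B cells with Fcer2a but no Ighd, 198 in CKO and 46 in WT, Cd74 was 11509 CPM in CKO and 10131 CPM in WT. Igkc, the kappa light chain, was level in the Ighd and Fcer2a subset, at 9447 CPM in CKO and 9418 CPM in WT, a ratio of 1.003 (0.996 to 1.01). Over the whole gate Igkc was 10177 CPM in CKO and 16243 CPM in WT, and Jchain, of antibody-secreting cells, 172 CPM in CKO and 812 CPM in WT. Cells with at least 5 Jchain UMIs numbered 12 in CKO and 30 in WT, and their Cd74 was 4681 CPM in CKO and 4182 CPM in WT.

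Subsets by activation and interferon genes, chosen after the data were seen, gave similar values. Ifit3, an interferon-induced gene, had a UMI in 26.3% of CKO and 19.8% of WT B cells. With Ifit3 all 8 members were lower in CKO at ratios of 0.847 to 0.888, against 39.5% of genes, and without it at 0.894 to 0.975, against 39.7% of genes. Cd74 in the cells with Ifit3 was 10799 CPM in CKO and 12159 CPM in WT, and in those without Ifit3 it was 11880 CPM in CKO and 12180 CPM in WT. The Cd74 ratio was thus 0.888 (0.877 to 0.899) with Ifit3 and 0.975 (0.969 to 0.982) without it, and these intervals did not overlap. The part of interferon-induced genes in the lower level was not tested. With an Egr3 UMI, a gene induced by receptor signalling, the ratios were 0.829 to 0.905, against 38.6% of genes lower, and without it 0.884 to 0.967, against 40%. Cycling B cells, with at least 2 UMIs of Mki67 and Top2a together, differed from this: 6 of 8 members were higher in CKO, where 53.1% of all genes were. Of the 8 intervals 3 lay above 1, a count with no share of all genes beside it. Cd74 was 6557 CPM in 81 CKO and 5861 CPM in 56 WT cycling B cells. Igkc in the same cells was 28712 CPM in CKO and 55617 CPM in WT, and Cd79b 1175 CPM in CKO and 913 CPM in WT, and the part of antibody-secreting cells in the higher class II values was not tested.

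**Figure D2:**
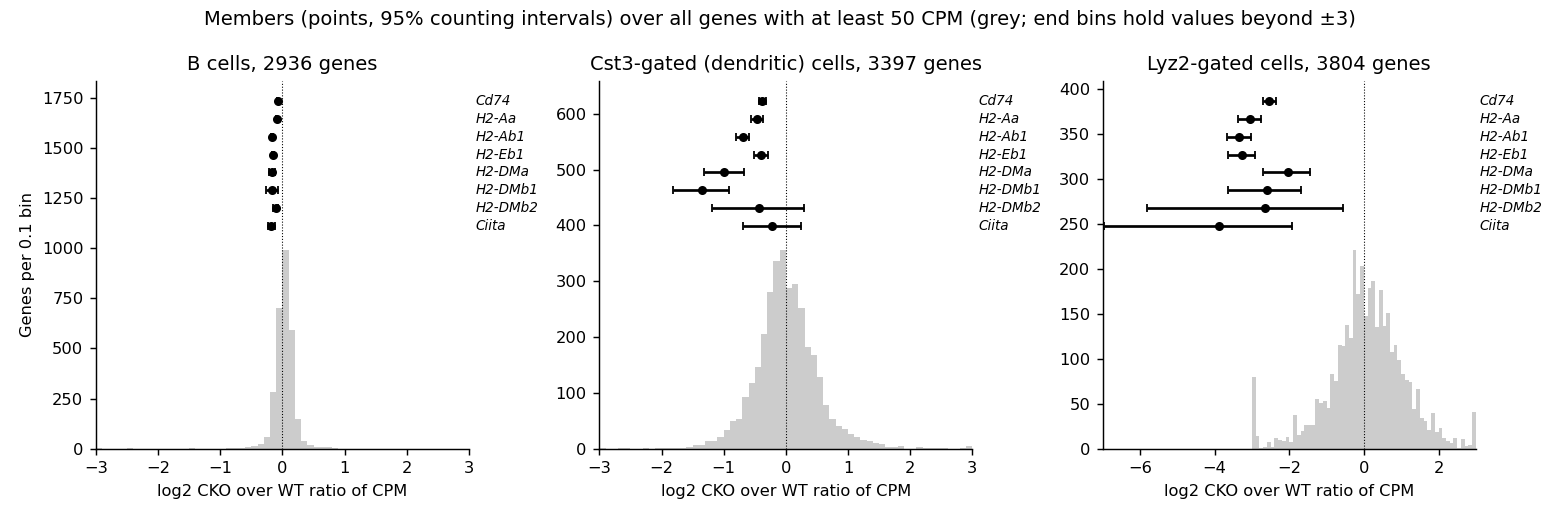
Log2 CKO over WT ratio of the 8 members (black points with 95% counting intervals) above the distribution of all genes with at least 50 CPM in either library (grey; number of genes per bin of 0.1) in the B, Cst3 and Lyz2 gates. The members sit just left of 0 in B cells, from -0.22 to -1.36 in the Cst3 gate, and from -2.05 to -3.88 in the Lyz2 gate, where the grey distribution is also far wider.

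In B cells the other genes of the pathway did not move as one. The remaining chain and editor genes with values, H2-Oa, H2-Ob and H2-Eb2, had ratios of 0.888 (0.854 to 0.924), 0.957 (0.930 to 0.984) and 0.933 (0.882 to 0.987). H2-Oa and H2-Ob encode DO, the partner that restrains DM in B cells. H2-Ea was not analysed here. Of the 14 transcription genes reported here, 11 had at least 20 CPM, and 0 of these 11 passed 1.2-fold, while 7.66% of all genes at that level did. Rfx5, the DNA-binding RFX subunit, was 41.8 CPM in CKO and 39.1 CPM in WT, and Nfya, a subunit of NF-Y, was 41.7 CPM in CKO and 35.6 CPM in WT. Creb1, Spi1 and Irf1, which act at class II or Ciita promoters, had ratios of 1.11, 1.13 and 1.15. Irf8 was level, at 0.998 (0.964 to 1.03), and the lowest ratio was that of Nfyc, at 0.930 (0.813 to 1.07). The interval of Rfx5, 0.963 to 1.18, held 1 as well. The median of the 11 was 0.15 on the log2 scale, against -0.16 for the 8 members.

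None of the 7 processing genes at 20 CPM or more passed 1.2-fold in B cells. Ctss, the protease that trims the invariant chain, was 572 CPM in CKO and 553 CPM in WT, and Ifi30, the lysosomal thiol reductase, was 354 CPM in CKO and 381 CPM in WT. Of the 6 turnover and co-stimulation genes, 1 was higher and 1 lower. Cd86, a ligand of CD28, was 51.6 CPM in CKO and 41.1 CPM in WT, a ratio of 1.25 (1.14 to 1.39). Cd83, which holds class II at the surface by opposing its ubiquitination, was 123 CPM in CKO and 181 CPM in WT, a ratio of 0.681 (0.647 to 0.717). March1, the ubiquitin ligase that Cd83 opposes, was 245 CPM in CKO and 240 CPM in WT.

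In the Cst3 gate all 8 members were lower in CKO, where 51.5% of the 3397 genes with at least 50 CPM were. The direction of the 4 most abundant turned when the cells of the Lyz2 gate were left out. Cd74 was 7104 CPM in CKO and 9221 CPM in WT, a ratio of 0.770 (0.738 to 0.804). H2-Ab1 was 2493 CPM in CKO and 4033 CPM in WT, a ratio of 0.618 (0.576 to 0.663). H2-DMb1 differed most, at 112 CPM in CKO and 288 CPM in WT, or 57 and 154 UMIs, a ratio of 0.391 (0.283 to 0.533). H2-DMa was 238 CPM in CKO and 474 CPM in WT, a ratio of 0.503 (0.401 to 0.627). The intervals of H2-DMb2, 28 UMIs in CKO and 40 in WT, and of Ciita, 74 UMIs in CKO and 91 in WT, held 1. Of the 8, 7 were at least 1.2-fold lower, against 25.7% of all genes, and 3 at least 1.5-fold lower, against 9.69%. The median log2 ratio of -0.45 became 0.23 without cells that also pass the Lyz2 gate, which left 54 CKO and 39 WT cells. In those cells Cd74 was at 0.23, H2-Aa at 0.32, H2-Ab1 at 0.24 and H2-Eb1 at 0.53 on the log2 scale. Ciita, at 0.35, and H2-DMb2 were also above 0 there, while H2-DMa and H2-DMb1 stayed below 0 in each of the 15 alternatives tried for this gate.

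The cells of this gate were split in turn by Siglech (at least 2 UMIs), Fscn1 (at least 2), Xcr1 (at least 1) and Lyz2 (at least 5), a split chosen after the data were seen. Siglech marks plasmacytoid dendritic cells, Fscn1 mature migratory ones and Xcr1 the cross-presenting type. Siglech cells numbered 12 in CKO and 11 in WT, and 5 of 8 members were higher in CKO, where 47.6% of all genes were. Their Cd74 was 6205 CPM in CKO and 3099 CPM in WT, a ratio of 2.002 (1.76 to 2.28), and their H2-Ab1 2193 CPM in CKO and 802 CPM in WT, a ratio of 2.74 (2.15 to 3.51). H2-DMa was level there, at 443 CPM in CKO and 446 CPM in WT. Igkc in the same cells was 1111 CPM in CKO and 479 CPM in WT, and its part in the higher class II level was not tested.

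Fscn1 cells numbered 26 in CKO and 18 in WT, and all 8 members were higher in CKO, at ratios of 1.15 to 3.015, where 45.3% of genes were higher. The intervals of H2-DMa, H2-DMb1 and H2-DMb2 held 1, and that of Ciita, the highest ratio, was 1.18 to 9.13. Cd74 in Fscn1 cells was 8084 CPM in CKO and 7042 CPM in WT, and H2-Ab1 2107 CPM in CKO and 1278 CPM in WT. The medians over single cells ran the other way, however: the summed Cd74 and chains had a median of 4873 CPM in CKO Fscn1 cells and 7665 CPM in WT Fscn1 cells. The pooled value thus rested on part of the cells, and single cells spanned 1140 to 67570 CPM in CKO and 328 to 73652 CPM in WT. Cd83 in this subset was 450 CPM in CKO and 240.5 CPM in WT, a ratio of 1.87 (1.24 to 2.88). Xcr1 cells, 4 in CKO and 7 in WT, had the highest pooled Cd74 of these subsets in both libraries, at 16008 CPM in CKO and 17854 CPM in WT, and no single cell below 27651 CPM in CKO or 28756 CPM in WT for the 4 genes together.

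In the cells with Lyz2 the members differed most. In this subset, 15 CKO and 12 WT cells, all 8 members were lower in CKO at ratios of 0.122 to 0.301, where 48.1% of all genes were lower. Cd74 was 2200 CPM in CKO and 8364 CPM in WT, and H2-Aa 748 CPM in CKO and 4599 CPM in WT. The median cell had 727 CPM of the 4 genes in CKO and 7527 CPM in WT. Irf8, a factor of dendritic cells, was also lower there, at 222 CPM in CKO and 738 CPM in WT. In the last subset, 12 CKO and 8 WT cells with none of the 4 markers, the members had ratios of 0.426 to 0.758. Cd74 was 10928 CPM in CKO and 14419 CPM in WT. The intervals of H2-DMa, H2-DMb1, H2-DMb2 and Ciita held 1, and the share of all genes lower in this subset was not taken. The median depth of the subset was 1771 UMIs in CKO and 6367 UMIs in WT, and the part of depth in its difference was not tested.

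Over the whole Lyz2 gate the members made up 0.415% of UMIs in CKO and 3.03% in WT. All 8 were lower in CKO, where 46.2% of the 3804 genes with at least 50 CPM were, and all 8 were at least 1.5-fold lower, against 20.9% of genes. Cd74 was 2051 CPM in CKO and 11879 CPM in WT, a ratio of 0.173 (0.153 to 0.195). H2-Aa was 695 CPM in CKO and 5823 CPM in WT, H2-Ab1 619 CPM in CKO and 6294 CPM in WT, and H2-Eb1 502 CPM in CKO and 4842 CPM in WT. Ciita had 2 UMIs in CKO and 40 in WT, a ratio of 0.0680 with an interval of 0.00796 to 0.262. H2-DMa was the least apart, at 179 CPM in CKO and 739 CPM in WT, a ratio of 0.242 (0.153 to 0.369). The chains had fewer UMIs relative to the invariant chain in CKO: Cd74 per chain UMI was 1.13 (0.953 to 1.34) in CKO and 0.7005 (0.664 to 0.739) in WT.

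Single cells of the Lyz2 gate fell at the ends of the scale rather than in the middle. The 4 genes together reached 20000 CPM in 2 of 21 CKO cells and in 10 of 19 WT cells, and stayed under 2000 CPM in 16 CKO and 7 WT cells. Of the 10 WT cells with a UMI of Xcr1, Clec9a, Flt3, Cd209a or Ccr7, 7 were among those at 20000 CPM or more, and only 3 CKO cells had such a UMI. Among cells without these markers, 1 of 18 in CKO and 3 of 9 in WT reached 20000 CPM, and the medians were 359 CPM in CKO and 1721 CPM in WT. Of the cells with such a UMI, 2 of 10 in WT and 1 of 3 in CKO stayed under 2000 CPM. The part of the dendritic cell markers in the class II values was not tested. In the cells without these markers the median log2 ratio of the members was -3.97, against -2.86 in the whole gate, on 18 CKO and 9 WT cells. With gates read on cells thinned to equal depth it was -1.32, and each member stayed below 0 under every alternative that gave a value.

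**Figure D3:**
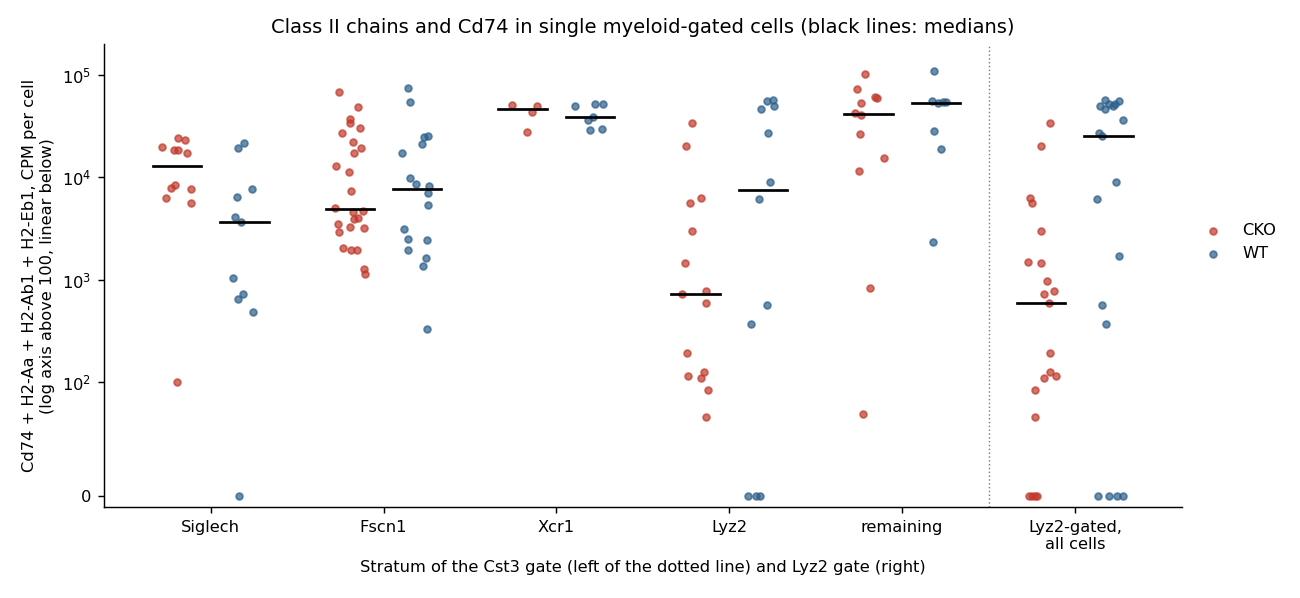
Sum of Cd74, H2-Aa, H2-Ab1 and H2-Eb1 in each cell, in CPM (log axis above 100, linear below), CKO (red, left) and WT (blue, right), for subsets of the Cst3 gate and for all cells of the Lyz2 gate; black lines are medians over cells, which are not replicates. Xcr1 cells are all high in both genotypes, and the Lyz2 gate holds 10 of 19 WT cells and 2 of 21 CKO cells at 20000 CPM or more.

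The other pathway genes of the 2 gates did not follow the members as a set. At 20 CPM or more, 60.2% of genes in the Cst3 gate and 79.7% in the Lyz2 gate were at least 1.2-fold apart, so counts past that fold say little here. In the Cst3 gate 3 of 10 transcription genes were higher and 4 lower, among them Irf8 at 975 CPM in CKO and 1473 CPM in WT. Of 8 processing genes there, 3 were higher and 1 lower, with Ctss at 1222 CPM in CKO and 900 CPM in WT, a ratio of 1.36 (1.203 to 1.53). Of 7 turnover and co-stimulation genes, 2 were higher and 3 lower, with Cd40, the receptor for T cell help, at 94.6 CPM in CKO and 161 CPM in WT. Of its 3 chain and editor genes, 1 was higher and 1 lower.

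In the Lyz2 gate the processing genes were split. Ctss was 2230 CPM in CKO and 1371 CPM in WT, and Ctsb, a lysosomal protease, was 874 CPM in CKO and 390 CPM in WT, a ratio of 2.24 (1.68 to 3.02). In all, 4 of 8 processing genes were at least 1.2-fold higher, and 2, Ifi30 and Lgmn, were at least 1.2-fold lower. The 3 chain and editor genes were all lower, and H2-Oa had 0 UMIs in CKO and 18 in WT. Of 11 transcription genes 4 were higher and 4 lower. Irf8 was 220 CPM in CKO and 1260 CPM in WT, a ratio of 0.175 (0.117 to 0.253), whereas Spi1, the myeloid factor PU.1, was 750 CPM in CKO and 476 CPM in WT. Of 7 turnover and co-stimulation genes 4 were higher and 2 lower.

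The 2 DM beta genes divided the cell types in both genotypes. In B cells H2-DMb1 gave 0.190 UMIs (0.183 to 0.198) for each H2-DMb2 UMI in CKO and 0.199 (0.187 to 0.210) in WT. In the Cst3 gate it gave 2.04 (1.27 to 3.32) in CKO and 3.85 (2.70 to 5.60) in WT. In the Lyz2 gate the ratio was 5.5 (1.2 to 51.1) in CKO, on 11 and 2 UMIs, and 5.29 (3.13 to 9.49) in WT. So B cells used mainly H2-DMb2, while the myeloid gates, each taken as a whole, held mainly H2-DMb1. Within the Cst3 gate Xcr1 cells lay at the H2-DMb1 end, with 90.0% of DM beta UMIs from it in CKO and 92.0% in WT. Fscn1 cells stood between, at 50% in CKO and 38.5% in WT, on 24 and 13 UMIs in all. So did the cells with none of the 4 markers, at 43.8% in CKO and 54.2% in WT. These rest on 7 H2-DMb1 and 9 H2-DMb2 UMIs in CKO and 13 and 11 in WT. Subsets of B cells with or without Ighd, Fcer2a and Jchain kept 14.1% to 20.6% in CKO and 16.4% to 21.5% in WT.

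The 2 transcripts are near copies. Over 1255 aligned bases, their first annotated transcripts were 94.4% identical, and 27.2% of the 50-base windows of H2-DMb1 also occur in H2-DMb2. Over the last 500 bases, nearest to where these libraries read, 20.4% of H2-DMb1 windows occur in H2-DMb2 transcripts, and 0 of the H2-DMb2 windows occur in those of H2-DMb1. Reads from shared stretches cannot be given to either gene, so the UMIs of H2-DMb1 above all, and the size of the ratio, are uncertain.

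**Figure D4:**
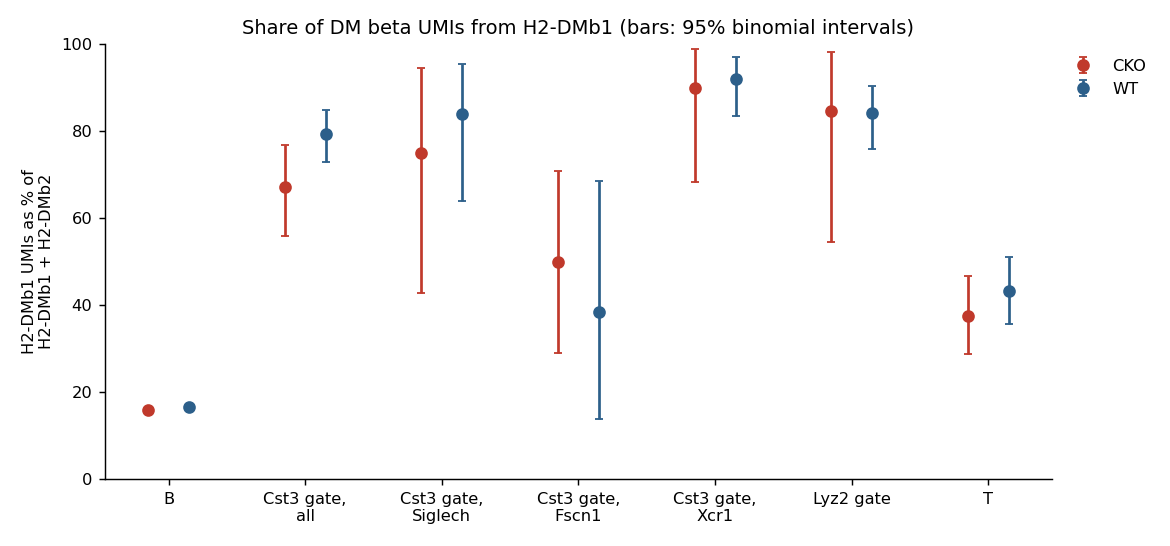
H2-DMb1 UMIs as a percent of H2-DMb1 plus H2-DMb2 UMIs in the B, Cst3, Lyz2 and T gates and in the Siglech, Fscn1 and Xcr1 subsets of the Cst3 gate, CKO (red, left) and WT (blue, right), with 95% binomial intervals. B cells lie at 16.0% in CKO and 16.6% in WT and Xcr1 cells at 90.0% in CKO and 92.0% in WT.

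T cells, which in mice make little or no class II RNA, were read as a check on free RNA, the RNA that droplets take up from outside the cell. In them the 3 chain genes and Cd74 were scarce, and higher in CKO. Cd74 was 72.5 CPM in CKO and 49.1 CPM in WT T-gated cells, a ratio of 1.47 (1.38 to 1.57). H2-Aa was 27.8 CPM in CKO and 19.8 CPM in WT, a ratio of 1.41 (1.27 to 1.56). In all, 7 of 8 members were higher in CKO, where 78.2% of the 2812 genes with at least 50 CPM were. Of the 8 intervals 5 lay above 1, a count with no share of all genes beside it. The intervals of H2-DMb1 and Ciita held 1, and Ciita, at 1.57 CPM in CKO and 1.57 CPM in WT, was level. Cd74, the 1 member at 50 CPM or more and so the 1 comparable with that background, passed 1.2-fold as 9.32% of genes did upward. The B-cell gene Igkc was higher too, at 47.0 CPM in CKO and 27.0 CPM in WT, as was Ms4a1, at 4.99 CPM in CKO and 1.38 CPM in WT. B cells were 62.2% of kept cells in CKO and 24.7% in WT, and their part in the T-gated levels was not tested.

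At 2000 UMIs a cell, 10.4% of CKO and 4.79% of WT T-gated cells had a Cd74 UMI, and unthinned 26.5% and 13.4%. The corresponding shares of natural killer cells were 13.3% in CKO and 11.1% in WT at equal depth, against 25.7% and 22.2% unthinned. Relative to the B cells of the same library, the T-gated level was 0.627% in CKO and 0.404% in WT for Cd74, 0.671% and 0.447% for H2-Aa, 0.649% and 0.436% for H2-Ab1, and 0.710% and 0.453% for H2-Eb1. Within a library these 4 proportions thus lay close together. The summed Cd74 and chains of a single T-gated cell reached at most 10895 CPM in CKO and 27990 CPM in WT, where 4 T-gated cells also passed the Cst3 gate. In natural killer cells the pooled value ran the other way, with Cd74 at 76.2 CPM in 175 CKO cells and 246 CPM in 63 WT cells, a ratio of 0.310 (0.226 to 0.424), and 1 of the WT cells also passed the Cst3 gate. The median natural killer cell had 0 CPM of the 4 genes in both libraries, and 172 of 175 CKO and 61 of 63 WT cells were under 1000 CPM. Siglech had 0 UMIs in the CKO natural killer gate and 21 UMIs in 2 of its WT cells, and the part of such cells in the pooled value was not tested. Subtracting the T-gated level left the B-cell ratios on the same side of 1 for all 8 members.

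H2-DMa was the exception among the members. Its T-gated level was 32.7 CPM in CKO and 36.9 CPM in WT, a ratio of 0.886 (0.813 to 0.965), which is 7.64% of the B-cell level in CKO and 7.66% in WT. This proportion was above that of every other member in both libraries by more than the counting intervals. Per UMI of the 2 DM beta genes, T-gated cells had 6.06 H2-DMa UMIs in CKO and 11.4 in WT, against 0.709 in CKO and 0.734 in WT B cells. T cells with Cd8a or Cd8b1 but no Cd4 UMI had 51.6 CPM of H2-DMa in CKO and 49.5 CPM in WT, and those with Cd4 only had 23.8 CPM in CKO and 29.3 CPM in WT. Cd74 was 71.8 CPM in CKO and 21.7 CPM in WT with Cd8 only, and 68.7 CPM in CKO and 51.6 CPM in WT with Cd4 only, so in WT it had the opposite order and in CKO the 2 kinds of cell lay close together. H2-Oa and H2-Ob also stood above the proportion of Cd74, at 3.29% and 2.69% of the B-cell level in CKO and 4.70% and 2.75% in WT. H2-DMa overlaps Brd2, on the other strand, only at the 5′ ends of both genes. The 3′ end of Brd2, at chr17:34112023, lies outside H2-DMa. The counting settings are not given in the sources used here, and the part of Brd2 reads in the H2-DMa count was not tested.

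**Figure D5:**
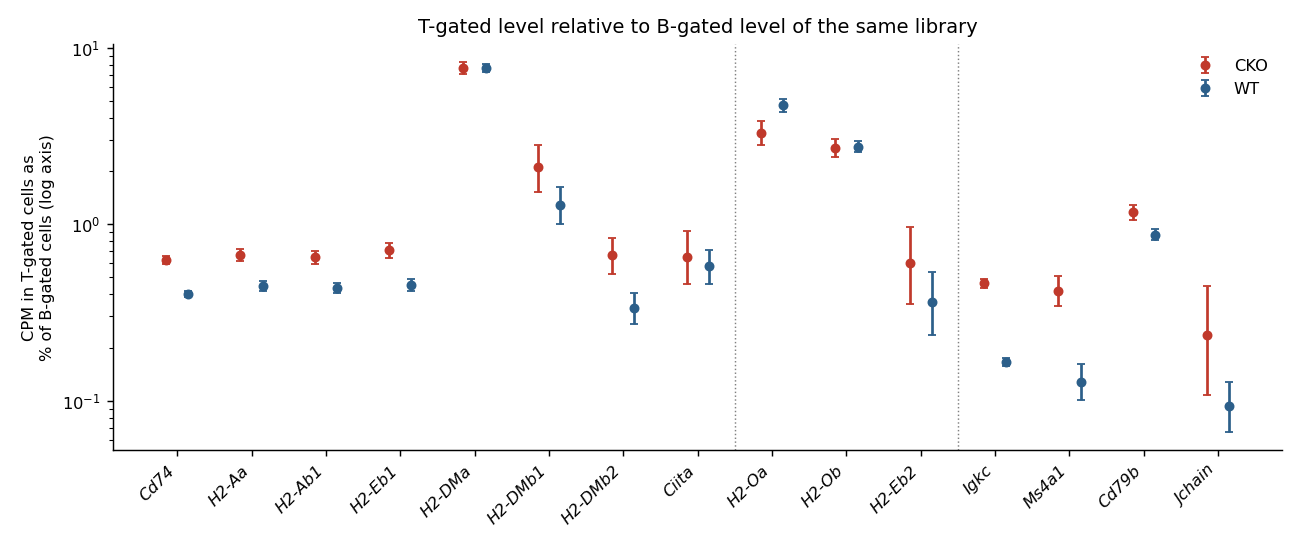
Level in T-gated cells as a percent of the level in B-gated cells of the same library (log axis), CKO (red, left) and WT (blue, right), for the 8 members, for H2-Oa, H2-Ob and H2-Eb2, and for 4 B-lineage genes; bars are 95% intervals for the T-gated counts. The chain genes and Cd74 lie between 0.404% and 0.710%, and H2-DMa at 7.64% in CKO and 7.66% in WT.

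Across gates the order of levels differed between the libraries at the Lyz2 gate. In CKO, 7 of the 8 members were highest in B cells, then in the Cst3 gate, then in the Lyz2 gate. H2-DMb1 was highest in the Cst3 gate, where its counting interval overlapped that of B cells. In WT the Lyz2 gate was the highest for H2-Aa, H2-Ab1, H2-Eb1, H2-DMa and H2-DMb1. The Lyz2 and Cst3 gates are not separate sets, since 15 of 21 CKO and 17 of 19 WT cells of the Lyz2 gate passed both. For Cd74 in WT the B cells and the Lyz2 gate did not differ beyond their intervals, and for Ciita the Lyz2 gate overlapped both the B cells and the Cst3 gate, which were apart from each other. T and natural killer cells came last for every member in both libraries, and in CKO their intervals overlapped for every member but H2-DMb1, although those of the Lyz2 gate overlapped them too for Ciita and H2-DMb2.

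The genes most like the class II chains across gates were sought by Pearson's r of log2(CPM + 1) with the mean of Cd74, H2-Aa, H2-Ab1 and H2-Eb1. The 10 profiles compared were 5 gates in 2 libraries, which share cells and depth, and 5011 genes outside the members were ranked. The first 5 were Pip4p1 (0.995), Wdfy4 (0.990), Alcam (0.985), H2-Eb2 (0.984) and Kynu (0.975). Wdfy4, needed for cross-presentation in mouse dendritic cells, was 20.6 CPM in CKO and 243 CPM in WT Lyz2-gated cells, and 88.3 CPM in CKO and 88.9 CPM in WT B cells. H2-Eb2, a further beta chain gene, was 13.8 CPM in CKO and 80.9 CPM in WT in the Lyz2 gate. Pip4p1 varied far less, from 34.3 CPM in CKO T-gated cells to 137 CPM in WT Lyz2-gated cells. Of the members outside the score, Ciita reached 0.975, H2-DMa 0.983, H2-DMb1 0.966 and H2-DMb2 0.919.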

How the data were processed

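Droplet 3′ single-cell libraries of lymph node immune cells, 1 from CKO and 1 from WT mice, were deposited by the authors as counts of UMIs per gene and barcode, 13754 CKO and 12769 WT barcodes with 76200586 and 84813609 UMIs. The file headers name Cell Ranger 6.0.2, while the submitters' processing notes name Cell Ranger 5.0.0, Seurat 4.0.3 and build mm10. Counting settings are not given in the sources used here. Barcodes needed at least 500 UMIs and 200 genes, with no more than 10% of UMIs from mitochondrial genes. Scrublet, in scanpy 1.11.5, ranked doublets, and the top 0.8% for each 1000 barcodes were removed. UMIs were summed over the cells of each gate and divided by the gate total (CPM). Levels have exact Poisson intervals, shares exact binomial (Clopper-Pearson) ones, and ratios exact conditional binomial ones, at 95%. UMI totals limit the precision: the Lyz2 gate summed to 145315 UMIs in CKO and 197658 in WT.

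No test was made, since each genotype has 1 library. The background counts genes with at least 50 CPM in either library. For shares, cells were thinned to 2000 UMIs, leaving out shallower cells. Pathway genes were named at 20 CPM or more, and genes by likeness were the first 5 by r. One gene of the transcription list is not reported here, and the counts leave it out. The members and lists were chosen with earlier results of these data known. Of the gene IDs of the files, 99.6% are in GENCODE M21. The interval and ratio code was tested on simulated data. Alternatives for gates, filters, totals and gate make-up are given in the closing section.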

Additional observations from a re-analysis of the deposited data

Results flagged for a closer look

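Members whose ratio of CKO to WT was above 1 in T-gated cells and below 1 in another gate, with both counting intervals clear of 1, were set side by side. The difference between gates was not tested. For Cd74 the ratio was 1.47 in T-gated cells, against 0.9497 in B cells, 0.770 in the Cst3 gate and 0.173 in the Lyz2 gate. For H2-Aa it was 1.41 in T-gated cells, against 0.937 in B cells, 0.727 in the Cst3 gate and 0.119 in the Lyz2 gate. For H2-Ab1 it was 1.33 in T-gated cells, against 0.892, 0.618 and 0.0984 in the same 3 gates. For H2-Eb1 it was 1.41 in T-gated cells, against 0.897, 0.758 and 0.104. For H2-DMb2 it was 1.84 in T-gated cells, on 75 CKO and 97 WT UMIs, against 0.926 in B cells and 0.160 in the Lyz2 gate. In every case the T-gated level was under 1% of the B-cell level of the same library.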

How the results depend on the processing

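No paired analysis was possible because each genotype has 1 library. In B cells all 8 members stayed below 0 in all 13 alternatives. Their median log2 ratio of -0.16 became -0.18 with gates read on thinned cells, -0.19 with equal weight per cell and -0.19 with Ighd, Fcer2a and Jchain subsets held equal. In the Cst3 gate the median of -0.45 became -0.26 with stricter gates, -0.30 with thinned gates, -0.30 with the Siglech, Fscn1, Xcr1 and Lyz2 subsets held equal, and 0.23 without cells of the Lyz2 gate. There Cd74 turned to 0.23, H2-Aa to 0.32, H2-Ab1 to 0.24 and H2-Eb1 to 0.53. The count of members at least 1.2-fold apart, 7, became 4 with those subsets held equal and 3 at 1.5-fold. In the Lyz2 gate the median of -2.86 became -1.32 with thinned gates, -3.79 with stricter exclusion of other lineages, -2.10 with all barcodes, -2.10 (-2.095) without doublet removal and -3.97 without cells with dendritic markers. Without cells of the Cst3 gate 6 CKO and 2 WT cells were left, and no value was taken. In T-gated cells the median of 0.49 became 0.18 with looser gates, 0.23 with stricter exclusion, 0.28 with all barcodes, 0.28 without doublet removal and 0.76 with equal weight per cell.

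Unthinned, the median share of cells with a member's UMI was 92.3% in CKO and 94.0% in WT B cells, 58.7% in CKO and 65.2% in WT Cst3-gated cells, and 10.2% in CKO and 5.06% in WT T-gated cells, against 80.8% and 82.2%, 39.5% and 47.9%, and 3.75% and 1.80% thinned. Of single pathway genes, Pax5 turned to -0.012 in B cells with equal weight per cell, Irf1 to -0.020 in B cells without Ifit3, Cd9 to 1.38 in the Lyz2 gate with thinned gates, and Ctsd to -0.094 in that gate without dendritic markers. The alternatives without Ifit3 cells, with the Siglech, Fscn1, Xcr1 and Lyz2 subsets, and without dendritic markers were chosen after seeing the data. The causes of these shifts were not tested.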
